A study of Mus musculus with 10 samples.

Results

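The 10 genes described here make, store, take up and break down serotonin and related monoamines in the gut, or divert the amino acid tryptophan away from serotonin. They are Tph1, Ddc, Slc18a1, Slc18a2, Chga, Chgb, Slc6a4, Maoa, Maob and Ido1, and they are members by gene symbol, with no threshold on their values. All 10 were on the array, out of 18193 genes with a single gene symbol in the platform annotation, and they were covered by 14 of its 45101 probe sets. Each gene was represented by its brightest probe set on average, and the other 4 probe sets are given with their gene.

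Transcript levels were measured in the terminal ileum, the last stretch of the small intestine, on 1 Affymetrix array per sample. The stressed group held 5 male C57BL/6JJmsSlc mice that went through 10 days of subchronic social defeat as intruders in the cages of retired male Slc:ICR mice, with contact lasting 5 min on day 1 and 0.5 min less each day down to 0.5 min on day 10. The control group held 5 unstressed male C57BL/6JJmsSlc mice. All were 7 weeks of age, were caged singly for a week of habituation, ate the AIN-93G diet and fasted for 3 h before the tissue was taken. The comparison asks whether these ileal transcripts differ in mice that met daily social defeat.

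Most of the serotonin of the body is made by enterochromaffin cells, hormone-secreting cells scattered in the gut epithelium. They convert tryptophan to 5-hydroxytryptophan with tryptophan hydroxylase (Tph1) and then to serotonin with aromatic amino acid decarboxylase (Ddc), pack it into granules with a vesicular monoamine transporter, and store it there with chromogranins. Released serotonin is removed by the serotonin transporter (Slc6a4) of neighbouring enterocytes and broken down by monoamine oxidases, while indoleamine dioxygenase (Ido1) sends tryptophan into the kynurenine pathway instead. These are bulk tissue samples, so more cells of a type and more RNA per cell cannot be told apart.

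One control array stood apart, and every comparison is therefore given with and without it. The array of control mouse 1 correlated with the others at 0.918 to 0.947 over the genes tested, against 0.975 to 0.995 among the other 9. It held 7.88 of Fabp6, the ileal bile acid binding protein, against 13.88 to 14.10 in the other 9 mice, so this ileal marker went against its label. It also held the highest level of Car1, a carbonic anhydrase of the colon, at 14.17. Stressed mouse 4 held 13.32 of Car1, and the other 8 mice held 4.95 to 7.41. Stressed mouse 1 had the highest log2 ratio of 3' to 5' control probe sets, a measure of RNA integrity, at 1.13, against 0.45 to 0.70 in the others. All values are deposited log2 values, and a difference is stressed minus control on that scale, with its standard error (SE) from limma.

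The threshold was a limma p under 0.05 after Benjamini-Hochberg adjustment, and no gene of the set passed it with either set of arrays. With all 10 arrays, 0 of the 10 genes passed, as did 0% of the 13666 genes tested. In stressed mice 7 genes were higher and 3 lower, and 50.9% of all genes tested were higher. The unadjusted p was under 0.05 for 1 gene, Maob, where 3.86% of all genes tested were higher at that level. Without control mouse 1, limma called 109 of 13666 genes, or 0.798%, of which 36 were higher and 73 lower. With arrays centred on their medians, it called 44 higher and 198 lower. None of the 10 was among the 109. Then 9 were higher in stressed mice and 1, Ido1, was lower, while 56.2% of all genes tested were higher. Slc18a1 turned to -0.0048 when the arrays were centred on their medians. Unadjusted p was under 0.05 for 4 of the 10 genes, Slc18a2, Maob, Chga and Chgb. All were higher, where 11.4% of all genes tested were higher at that level. The same 4 had all 5 stressed mice above all 4 remaining controls, against 4.51% of all genes tested. Slc18a2 did not pass the filter on low values and was tested in a table of 18193 genes with no filter, where limma called 0.489%, 8.93% were higher at an unadjusted p under 0.05 and 3.55% were separated this way.

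**Figure D1:**
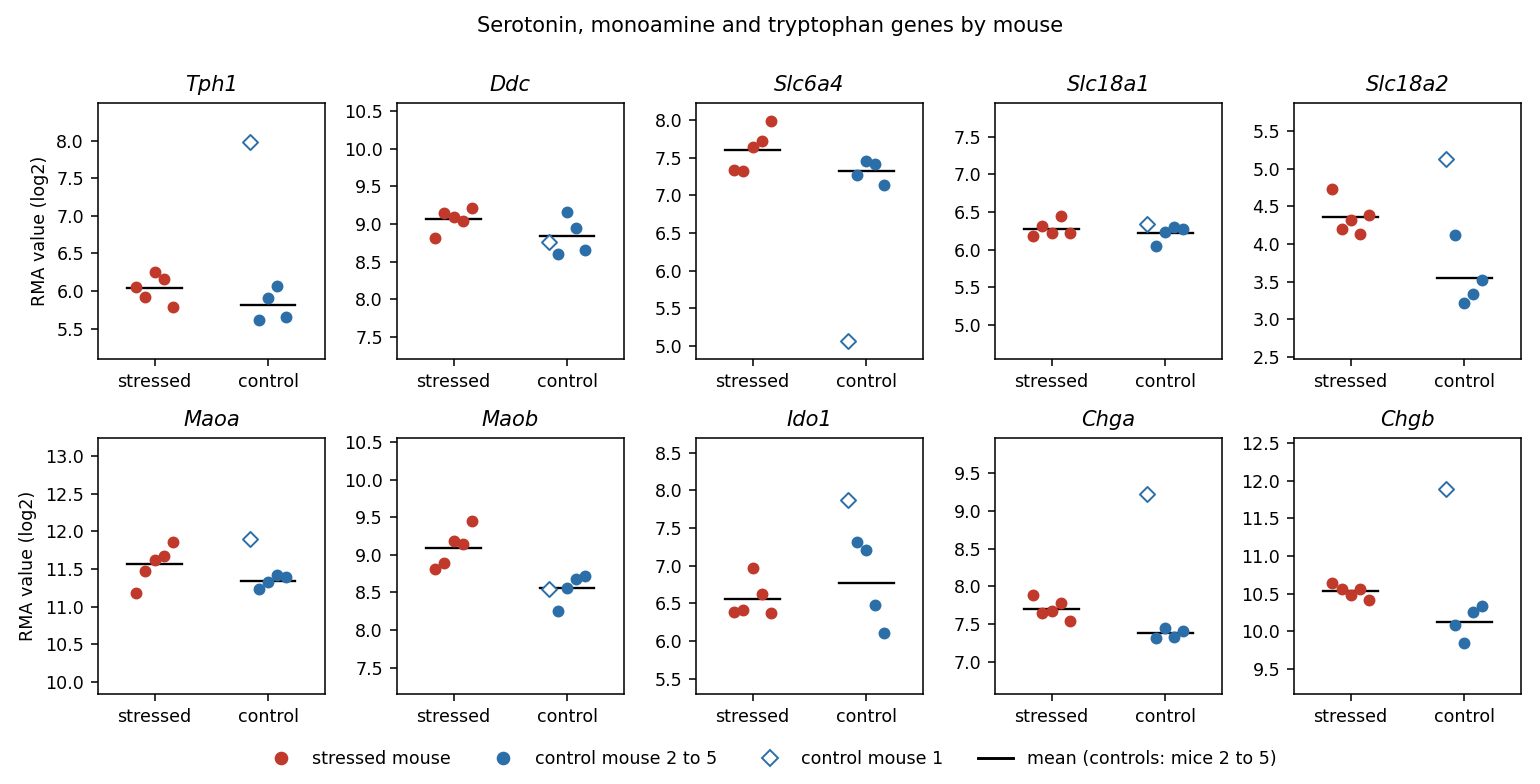
Log2 RMA value of each of the 10 genes in each mouse, stressed mice at left and control mice at right, with the group means as bars (control mice 2 to 5). Control mouse 1, drawn as an open diamond, was the highest of all 10 mice for 6 genes and the lowest for Slc6a4. All axes span the same number of log2 units.

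**Figure D2:**
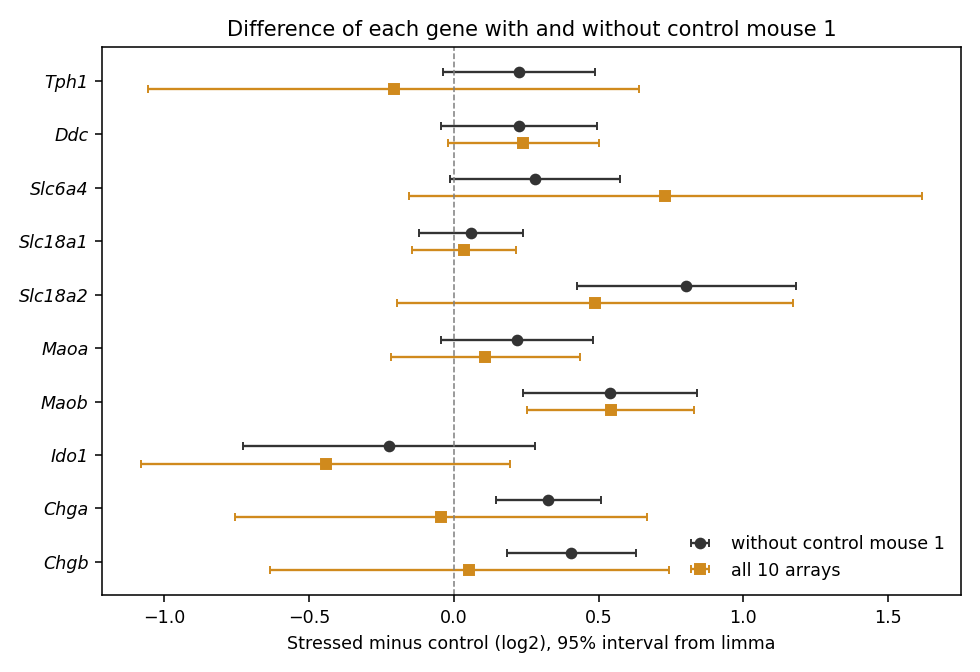
Stressed minus control difference of each gene in log2 units with its 95% interval from limma, without control mouse 1 (circles) and with all 10 arrays (squares). The interval lies above 0 for Maob in both comparisons, and for Slc18a2, Chga and Chgb in the one without control mouse 1.

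Tph1, the rate-limiting enzyme of serotonin synthesis in the gut, did not differ beyond the spread between mice. It was at 6.06, 5.92, 6.26, 6.16 and 5.79 in stressed mice 1 to 5, against 7.98, 5.62, 5.91, 6.06 and 5.66 in control mice 1 to 5. Control mouse 1 exceeded the other controls' mean by 2.17, and the other 4 controls overlapped the stressed mice. The mean was 6.04 ± 0.19 (SD, n = 5) in stressed mice, against 6.25 ± 0.99 (SD, n = 5) in all controls and 5.81 ± 0.21 (SD, n = 4) without control mouse 1. The sign of the difference turned with that mouse. It was -0.21 ± 0.39 (SE) with all 10 arrays (limma adjusted p = 0.925). Leaving that mouse out, it was 0.23 ± 0.12 (SE), with a 95% interval of -0.04 to 0.49 (limma adjusted p = 0.345). That interval spans 0.975 to 1.40 times the control level.

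Ddc, the decarboxylase that forms serotonin and dopamine and that enterocytes also express, was at 8.82, 9.15, 9.09, 9.03 and 9.21 in stressed mice 1 to 5, against 8.76, 8.60, 9.15, 8.94 and 8.65 in control mice 1 to 5. Control mouse 1 lay within the range of the other controls here, and the groups overlapped, with control mice 3 and 4 above stressed mouse 1. The difference was 0.24 ± 0.12 (SE) with all 10 arrays (limma adjusted p = 0.669) and 0.22 ± 0.12 (SE) without control mouse 1 (limma adjusted p = 0.358). A further probe set of Ddc averaged 3.72 over the arrays, below the filter floor of 4.15. It differed by -0.05 with all arrays and by 0.07 without control mouse 1.

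Of the genes that load and store amines in granules, 3 of 4 separated the groups once control mouse 1 was left out. Such a separation, with stressed mice higher, was found for 4.51% of all genes tested and 3.55% with no filter. Slc18a2, 1 of the 3, lay below the filter and separated by 4.13 against 4.12. Slc18a1 and Slc18a2 encode the vesicular monoamine transporters VMAT1 and VMAT2, which pump amines into secretory vesicles. Chga and Chgb encode chromogranins A and B, acidic proteins that pack the granules of endocrine and neuronal cells. For Slc18a1 the groups overlapped. The RefSeq table used here held promoter windows, from 250 bases before to 50 bases after the annotated start, for 7 of the 10 genes, not including Slc18a1, Maob and Ido1. Of the 7, Chga, Chgb and Slc18a2 held TGACGT, read on both strands (as ACGTCA on the other). This is the core of the cAMP response element, a site that CREB and related factors are known to bind. It was in 7.51% of all 32817 windows of this length in the table. A match of letters is a description and shows no binding. The 3 windows are printed 5′ to 3′ on the plus strand of GRCm38.p6, with the motif in capitals. Chga (chr12:102554691-102554990) holds it from base -44 relative to the start, Chgb (chr2:132781392-132781691) from base -72 and Slc18a2 (chr19:59260628-59260927) from base -4. In Chgb and Slc18a2 the letters run on to TGACGTCA, which reads the same on both strands, so that the 2 readings overlap.
Chga: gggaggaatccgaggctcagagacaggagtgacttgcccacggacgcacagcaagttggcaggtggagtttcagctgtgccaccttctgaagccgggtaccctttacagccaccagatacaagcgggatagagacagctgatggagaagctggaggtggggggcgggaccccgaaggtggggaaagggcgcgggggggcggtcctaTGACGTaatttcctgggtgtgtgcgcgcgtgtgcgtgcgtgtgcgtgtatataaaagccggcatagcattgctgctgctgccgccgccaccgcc
Chgb: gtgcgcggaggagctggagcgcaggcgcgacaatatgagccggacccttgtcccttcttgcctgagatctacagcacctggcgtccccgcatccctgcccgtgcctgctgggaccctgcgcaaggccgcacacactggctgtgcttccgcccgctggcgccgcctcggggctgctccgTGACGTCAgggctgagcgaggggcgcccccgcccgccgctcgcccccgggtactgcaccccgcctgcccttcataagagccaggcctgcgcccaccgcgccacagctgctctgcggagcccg
Slc18a2: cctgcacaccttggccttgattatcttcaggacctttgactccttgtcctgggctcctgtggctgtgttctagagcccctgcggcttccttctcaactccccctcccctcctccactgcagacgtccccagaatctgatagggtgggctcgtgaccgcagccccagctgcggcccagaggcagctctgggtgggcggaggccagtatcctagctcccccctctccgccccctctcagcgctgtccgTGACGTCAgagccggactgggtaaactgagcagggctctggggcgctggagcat

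Chga was at 7.88, 7.64, 7.67, 7.78 and 7.53 in stressed mice 1 to 5, against 9.22, 7.31, 7.45, 7.33 and 7.41 in control mice 1 to 5. Control mouse 1 was the highest of all mice, 1.85 above the mean of the other controls, and the other 4 controls all lay below the lowest stressed mouse. The difference was -0.04 ± 0.32 (SE) with all 10 arrays (limma adjusted p = 0.981). On the other 9 arrays it was 0.33 ± 0.08 (SE), a 1.25-fold higher level with a 95% interval of 1.10 to 1.42, and the limma adjusted p of 0.0848 missed the threshold. The stressed mice averaged 7.70 ± 0.13 (SD, n = 5), against 7.38 ± 0.07 (SD, n = 4) in control mice 2 to 5.

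Chgb was at 10.64, 10.56, 10.48, 10.57 and 10.42 in stressed mice 1 to 5, against 11.89, 10.08, 9.84, 10.26 and 10.34 in control mice 1 to 5. Control mouse 1 was again the highest of all, by 1.76 over the mean of the other controls, which all lay below the stressed mice. With all 10 arrays the difference was 0.05 ± 0.31 (SE) (limma adjusted p = 0.977), and its sign turned when control mouse 2, 3 or 4 was left out (-0.05, -0.11 and -0.0026). On the other 9 arrays it was 0.41 ± 0.10 (SE), or 1.32-fold with a 95% interval of 1.14 to 1.55 (limma adjusted p = 0.0816). Chga and Chgb overlap in their source, since enterochromaffin cells, other endocrine cells and neurons all express them.

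Slc18a2 was at a low level, at 4.73, 4.20, 4.32, 4.13 and 4.39 in stressed mice 1 to 5, against 5.13, 4.12, 3.22, 3.33 and 3.53 in control mice 1 to 5. Its mean of 4.11 lay below the filter floor of 4.15, where array values are least certain. Control mouse 1 was the highest, and the closest pair of the others was stressed mouse 4 at 4.13 and control mouse 2 at 4.12. With all 10 arrays the difference was 0.49 ± 0.31 (SE) (limma adjusted p = 0.765 over 18193 genes). It was 0.80 ± 0.17 (SE) without control mouse 1, or 1.74-fold with a 95% interval of 1.34 to 2.27 (limma adjusted p = 0.0695 over 18193 genes). With control mouse 2 left out too, it was 0.99 with a limma adjusted p of 0.0376, and over all alternatives without control mouse 1 the adjusted p ran from 0.0376 to 0.390. VMAT2 is the transporter of monoaminergic neurons and mast cells as well as of some endocrine cells.

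Slc18a1, the endocrine form, was at 6.18, 6.31, 6.22, 6.44 and 6.22 in stressed mice 1 to 5, against 6.34, 6.05, 6.23, 6.30 and 6.27 in control mice 1 to 5. The groups overlapped with and without control mouse 1. The difference was 0.03 ± 0.08 (SE) with all 10 arrays (limma adjusted p = 0.940) and 0.06 ± 0.08 (SE) without control mouse 1, with a 95% interval of -0.12 to 0.24 (limma adjusted p = 0.737). The other probe sets of Slc18a1 averaged 3.02 and 1.74, below the filter floor.

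Slc6a4 encodes the serotonin transporter SERT, through which enterocytes and nerve endings clear serotonin. It was at 7.34, 7.32, 7.64, 7.72 and 7.99 in stressed mice 1 to 5, against 5.07, 7.28, 7.45, 7.42 and 7.13 in control mice 1 to 5. Here control mouse 1 was the lowest of all mice, 2.25 below the mean of the other controls, and 3 stressed mice lay above every control. The mean was 7.60 ± 0.28 (SD, n = 5) in stressed mice, against 6.87 ± 1.02 (SD, n = 5) in all controls and 7.32 ± 0.15 (SD, n = 4) without control mouse 1. The difference was 0.73 ± 0.40 (SE) with all 10 arrays (limma adjusted p = 0.726). Once that mouse was left out, it was 0.28 ± 0.13 (SE), with a 95% interval of -0.02 to 0.57 (limma adjusted p = 0.301), so most of the larger value came with 1 array.

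Maob, a mitochondrial monoamine oxidase that degrades phenylethylamine and dopamine, was the 1 gene whose groups did not overlap with all 10 arrays, as was the case for 1.16% of the genes tested. It was at 8.81, 8.89, 9.19, 9.14 and 9.45 in stressed mice 1 to 5, against 8.54, 8.25, 8.56, 8.68 and 8.73 in control mice 1 to 5. Every stressed mouse lay above every control, and control mouse 1 was near the mean of the others. The mean was 9.09 ± 0.25 (SD, n = 5) in stressed mice, against 8.55 ± 0.18 (SD, n = 5) in controls. The difference was 0.54 ± 0.13 (SE), a 1.46-fold higher level with a 95% interval of 1.19 to 1.78, an unadjusted p of 0.00166 and a limma adjusted p of 0.345. The difference without control mouse 1 was 0.54 ± 0.14 (SE) with a limma adjusted p of 0.0847.

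Maoa, the monoamine oxidase that prefers serotonin and noradrenaline, was at 11.18, 11.48, 11.62, 11.67 and 11.86 in stressed mice 1 to 5, against 11.90, 11.24, 11.33, 11.43 and 11.39 in control mice 1 to 5. Stressed mouse 1 was the lowest of all mice and control mouse 1 the highest, so the groups overlapped. The other 4 stressed mice lay above the other 4 controls. The difference was 0.11 ± 0.15 (SE) with all 10 arrays (limma adjusted p = 0.891) and 0.22 ± 0.12 (SE) without control mouse 1 (limma adjusted p = 0.360). A further probe set of Maoa, which averaged 9.51, differed by 0.20 with all arrays and by 0.33 without control mouse 1.

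Ido1, the interferon-induced enzyme that opens the kynurenine pathway in dendritic cells and epithelium, was at 6.38, 6.41, 6.97, 6.63 and 6.37 in stressed mice 1 to 5, against 7.88, 7.31, 7.21, 6.47 and 6.11 in control mice 1 to 5. Control mice 1, 2 and 3 were above all stressed mice, and control mouse 5 was the lowest of all. The mean was 6.55 ± 0.26 (SD, n = 5) in stressed mice, against 7.00 ± 0.70 (SD, n = 5) in all controls and 6.78 ± 0.58 (SD, n = 4) without control mouse 1. The difference was -0.44 ± 0.29 (SE) with all 10 arrays (limma adjusted p = 0.772). On the other 9 arrays it was -0.22 ± 0.23 (SE), with a 95% interval of -0.73 to 0.28 (limma adjusted p = 0.643), and with array weights it was 0.0044.

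Ido1 is a target of interferon gamma, and the list of 15 other tested genes of that response was lower in stressed mice. On the 9 arrays without control mouse 1, all 15 had negative differences, with a median of -0.48 against 0.03 for all genes tested. The unadjusted p was under 0.05 for 10 of them, where 6.56% of all genes tested were lower at that level, and 0 passed limma after adjustment (2 with arrays centred on their medians). Psmb8, an immunoproteasome subunit, differed by -0.93 ± 0.19 (SE) (limma adjusted p = 0.0517), Psmb9, another subunit, by -0.75 ± 0.18 (limma adjusted p = 0.0669) and Cxcl9, a chemokine that draws T cells, by -1.39 ± 0.34 (limma adjusted p = 0.0775). With all 10 arrays 14 of the 15 were lower, with a median of -0.32. The list mean per mouse was 6.82 to 7.26 in stressed mice, against 7.21 to 7.91 in control mice 2 to 5 and 6.93 in control mouse 1. Control mouse 1 thus held the highest Ido1 with the lowest list mean among the controls. The list of 12 dendritic cell and macrophage genes had means of 6.37 to 6.52 in stressed mice. They were 6.53 to 6.72 in control mice 2 to 5 and 6.40 in control mouse 1. In it 10 genes were lower and 2 higher, and 0 passed (4 lower and 1 higher with unadjusted p under 0.05). Among them Itgam differed by -0.59 (limma adjusted p = 0.175) and Irf8 by -0.35 (limma adjusted p = 0.161), while Mertk, an efferocytosis receptor, differed by 0.33 (limma adjusted p = 0.194). Their part in the level of Ido1 was not tested.

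The rest of the pathway was described through lists of genes that share a step. In these 9 lists limma called 1 gene without control mouse 1 and 0 with all 10 arrays. Of all genes tested without control mouse 1, 11.4% were higher and 6.56% lower at an unadjusted p under 0.05. The 9 tested genes of amine synthesis and its cofactor split into 4 higher and 5 lower, with a median of -0.14 and 0 called (2 higher and 2 lower with unadjusted p under 0.05). They include opposite differences within the tetrahydrobiopterin cofactor system that Tph1 needs. Gch1, which opens the synthesis of the cofactor, differed by -0.43 ± 0.12 (SE) without control mouse 1 (limma adjusted p = 0.0991). Qdpr, which recycles it, differed by 0.31 ± 0.08 (limma adjusted p = 0.0814), and Pcbd1, which acts in the same recycling, by 0.20 ± 0.07 (limma adjusted p = 0.191). The stressed mice lay wholly above the controls for Qdpr and Pcbd1 with all 10 arrays, as for 1.16% of all genes tested. For Gch1 they lay wholly below the controls without control mouse 1, as for 2.72% of all genes tested. Tph2, the neuronal tryptophan hydroxylase, lay below the filter, at 1.65 to 2.11 in stressed mice and 1.72 to 2.01 in controls.

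**Figure D3:**
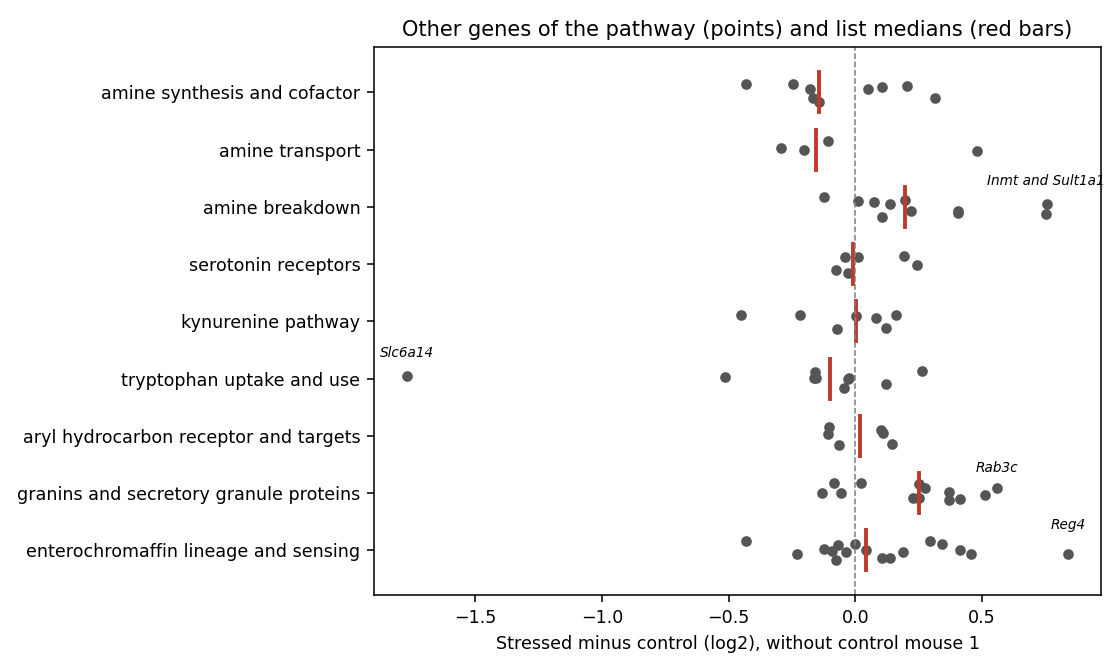
Stressed minus control difference in log2 units, without control mouse 1, of each tested gene (points) in 9 lists of the pathway, with the median of each list as a red bar. Slc6a14 lies lowest at -1.77, and the medians of breakdown and of granins and granule proteins are the highest, at 0.20 and 0.25.

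Of the other amine transporters, 1 of 4 tested genes was higher and 3 were lower, with 0 called and 0 at an unadjusted p under 0.05. Slc47a1, an exporter of organic cations, differed by 0.48 (limma adjusted p = 0.426), the noradrenaline transporter Slc6a2 by -0.29 (limma adjusted p = 0.283) and Slc22a2 by -0.20 (limma adjusted p = 0.368). Of 11 further genes of amine breakdown, 10 were higher and 1 lower without control mouse 1, with a median of 0.20. None passed, and 2 were at an unadjusted p under 0.05. These were Inmt, an indole N-methyltransferase, at 0.75 ± 0.30 (SE) (limma adjusted p = 0.214) and Aoc3, a vascular amine oxidase, at 0.41 ± 0.18 (limma adjusted p = 0.253). Inmt was at 7.60 in stressed mouse 4 and 7.46 in control mouse 1, the mice highest in Car1. It was at 5.75 to 6.34 in the other stressed mice and 5.32 to 5.83 in control mice 2 to 5. Smox, a polyamine oxidase, was the lower one, at -0.13 (limma adjusted p = 0.336).

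Of the serotonin receptors, 6 of 12 on the array passed the filter, 3 with positive and 3 with negative differences, and 0 were called or at an unadjusted p under 0.05. Htr4, the receptor through which serotonin promotes motility, differed by 0.24 ± 0.15 (SE) (limma adjusted p = 0.426), Htr3a, the ion channel subunit on sensory nerves, by 0.19 ± 0.09 (limma adjusted p = 0.309) and Htr1a by -0.08 (limma adjusted p = 0.771). The 7 tested genes downstream of Ido1 in the kynurenine pathway had a median of 0.00, 4 higher and 3 lower, with 0 called. Kmo, kynurenine monooxygenase, differed by -0.45 ± 0.18 (SE) and was the 1 gene of that list at an unadjusted p under 0.05 (limma adjusted p = 0.231). Kyat3 differed by 0.16 (limma adjusted p = 0.339) and Nadsyn1 by 0.12 (limma adjusted p = 0.443). The other tryptophan dioxygenases, Ido2 and Tdo2, lay below the filter. For the aryl hydrocarbon receptor, which tryptophan metabolites activate, 3 of 6 tested genes of its list were higher and 3 lower, with 0 called or at an unadjusted p under 0.05. Ahr itself differed by 0.14 (limma adjusted p = 0.498), its partner Arnt by 0.10 (limma adjusted p = 0.512) and the target Cyp1b1 by -0.11 (limma adjusted p = 0.485).

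Among the carriers that bring tryptophan into cells, Slc6a14 had the largest difference of the pathway lists. Slc6a14 encodes a broad neutral and cationic amino acid transporter that epithelia induce in inflammation. It was at 7.94, 8.55, 9.05, 8.95 and 6.11 in stressed mice 1 to 5, against 11.02, 10.42, 9.14, 9.96 and 10.04 in control mice 1 to 5. Every stressed mouse was below every control, as for 1.12% of all genes tested, with stressed mouse 5 far below the other stressed mice. The difference was -2.0 ± 0.53 (SE) with all 10 arrays (limma adjusted p = 0.364) and -1.77 ± 0.51 (SE) without control mouse 1 (limma adjusted p = 0.113). Slc7a5, the large neutral amino acid carrier, differed by -0.52 ± 0.16 (SE) without control mouse 1 (limma adjusted p = 0.134), and Slc7a8 by 0.12 (limma adjusted p = 0.362). Over the 10 tested genes of tryptophan uptake and use, 2 were higher and 8 lower without control mouse 1, with a median of -0.10, while with all 10 arrays 6 were higher and 4 lower, with a median of 0.24. In this list 0 passed, and 2 lower genes were at an unadjusted p under 0.05.

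Granins and other proteins of secretory granules were mostly higher, as Chga and Chgb were. Of 14 tested genes, 11 were higher and 3 lower without control mouse 1, with a median of 0.25 and 1 gene called. At an unadjusted p under 0.05, 8 were higher, where 11.4% of all genes tested were. With all 10 arrays 10 were higher and 4 lower, with a median of 0.09, 2 higher genes at an unadjusted p under 0.05 and 0 called. The gene called was Rab3c, a GTPase of regulated exocytosis, which rose without control mouse 1. Rab3c was at 6.43, 5.98, 6.11, 6.11 and 5.94 in stressed mice 1 to 5, against 6.07, 5.71, 5.36, 5.47 and 5.68 in control mice 1 to 5. Its difference was 0.56 ± 0.11 (SE) without control mouse 1 (limma adjusted p = 0.0463) and 0.46 ± 0.14 (SE) with all 10 arrays (limma adjusted p = 0.429). The call held in 7 of 18 alternatives without control mouse 1, with adjusted p from 0.0304 to 0.220, and it ended on leaving out any other mouse except stressed mouse 2. Scg2, secretogranin II, was at 8.21, 7.80, 8.05, 7.85 and 7.83 in stressed mice 1 to 5, against 7.70, 7.50, 7.48, 7.59 and 7.74 in control mice 1 to 5. All stressed mice were above all 5 controls, as for 1.16% of all genes tested. The difference of Scg2 was 0.37 ± 0.10 (SE) without control mouse 1 (limma adjusted p = 0.0976). Pcsk1, the prohormone convertase of endocrine cells, differed by 0.27 ± 0.08 (limma adjusted p = 0.105).

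Genes of the enterochromaffin lineage and of its sensing channels differed in both directions. Of 17 tested genes, 9 were higher and 8 lower without control mouse 1, with a median of 0.04 and 0 called, and the unadjusted p was under 0.05 for 5 higher genes and 1 lower gene. Reg4, a secreted lectin of endocrine and other secretory cells, differed by 0.84 ± 0.20 (SE) (limma adjusted p = 0.0688) and Cartpt, a neuropeptide precursor, by 0.41 ± 0.11 (limma adjusted p = 0.101). The other higher genes at that unadjusted p were Mnx1 (0.46), Isl1 (0.30) and Rfx3 (0.34), with limma adjusted p of 0.110, 0.123 and 0.222. Gch1, also in the synthesis list, was the lower one. The list mean, which includes Reg4 and Mnx1, was 5.95 to 6.03 in stressed mice. It was 5.84 to 5.93 in control mice 2 to 5 and 5.87 in control mouse 1. The lineage markers Fev and Rfx6 were not analysed here. Under other scalings the lists with medians within 0.05 of 0 (receptors, kynurenine pathway, aryl hydrocarbon receptor, enterochromaffin lineage) changed sign in at least 1 case, and the other lists of the pathway kept their sign.

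Markers of enteric neurons, which share Slc18a2, Chga, Chgb, Scg2 and Rab3c with endocrine cells, were also mostly higher in stressed mice. On the 9 arrays without control mouse 1, 12 of 13 tested neuronal genes were higher and 1 lower, with a median of 0.27 and 0 called. At an unadjusted p under 0.05, 6 were higher, where 11.4% of all genes tested were. Snap25, a protein of vesicle fusion, differed by 0.53 ± 0.13 (SE) (limma adjusted p = 0.0733), Elavl4, a neuronal RNA-binding protein, by 0.43 ± 0.15 (limma adjusted p = 0.182) and Stmn2 by 0.25 ± 0.10 (limma adjusted p = 0.217). Over all 10 arrays 10 neuronal genes were higher and 3 lower, with a median of 0.10 and 0 at an unadjusted p under 0.05. The neuronal list mean was 6.20 to 6.72 in stressed mice, against 6.04 to 6.21 in control mice 2 to 5 and 6.93 in control mouse 1. The stressed mouse at 6.72 was mouse 1, which also had the highest values of Chga, Chgb, Slc18a2, Scg2 and Rab3c among stressed mice and the highest 3' to 5' ratio. Without it and control mouse 1 the differences were 0.28 for Chga, 0.38 for Chgb and 0.71 for Slc18a2. With the neuronal list mean of each array as a covariate, chosen after seeing the data, they were 0.19, 0.26 and 0.54, and that of Rab3c was 0.29 (limma adjusted p = 0.220). In the same fit Ddc was at 0.48, Maoa at 0.47, Slc6a4 at 0.50 and Maob at 0.73, and 0 of these 8 genes passed. With this covariate limma called 0 of all genes tested, against 109 without it, so the loss of calls was not particular to these genes. The 10 smooth muscle genes, a list also added after seeing the data, had means of 9.17 to 10.09 in stressed mice. The stressed mouse at 10.09 was again mouse 1. These means were 9.31 to 9.71 in control mice 2 to 5 and 10.33 in control mouse 1. Of the 10 genes, 6 were higher and 4 lower without control mouse 1, and 0 passed. In this list 1 higher gene, Myocd at 0.35, was at an unadjusted p under 0.05 (limma adjusted p = 0.223). Lmod1 differed by 0.25 (limma adjusted p = 0.444) and Actg2 by -0.35 (limma adjusted p = 0.304).

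**Figure D4:**
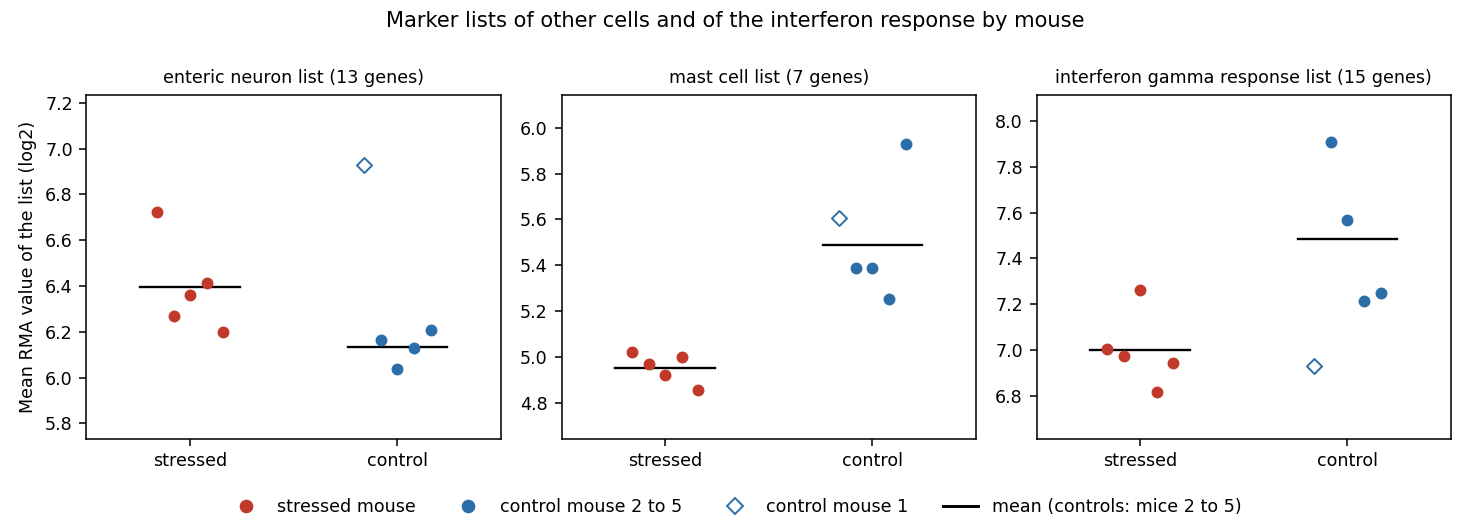
Mean log2 RMA value of the enteric neuron, mast cell and interferon gamma response lists in each mouse, stressed mice at left and control mice at right, with group means as bars (control mice 2 to 5). Stressed mice sit below all controls for the mast cell list, at 4.86 to 5.02. That list mean includes Cpa3, Mcpt1 and Mcpt2, which passed the filter through the controls. For neuronal genes, stressed mouse 1 sits above the other stressed mice.

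Mast cells store histamine and in rodents also serotonin. Without control mouse 1, 1 of their 7 tested genes passed the test, where 0.798% of all genes tested did. That gene had every stressed mouse below the filter floor. Cpa3, carboxypeptidase A3, fell by 0.48 ± 0.08 (SE) without control mouse 1 (limma adjusted p = 0.0329), and with all 10 arrays it differed by -0.42 ± 0.10 (limma adjusted p = 0.342). The call held in 8 of 17 alternatives without control mouse 1, with adjusted p from 0.0232 to 0.162, and of the single mice left out it ended for all except control mouse 5 and stressed mouse 2. Mcpt1 and Mcpt2, proteases of mucosal mast cells, differed by -1.55 ± 0.39 (limma adjusted p = 0.0826) and -1.53 ± 0.42 (limma adjusted p = 0.10). All 3 had every stressed mouse below all 5 controls, as for 1.12% of all genes tested. For all 3 every stressed mouse was also below the filter floor of 4.15 (Cpa3 at 3.76 to 4.11, Mcpt1 at 2.96 to 3.8 and Mcpt2 at 3.66 to 4.12), so they passed the filter through the controls, and Cpa3 was left out under the stricter filter. Their tests and separations therefore rest on stressed values below the floor, and the size of their differences is uncertain. The tryptases Tpsb2 and Tpsab1 differed by -0.28 and -0.27 (limma adjusted p = 0.540 and 0.394), Kit by 0.25 and Gata2 by 0.12. Over the 7 tested genes, 2 were higher and 5 lower, 1 lower gene passed and 3 lower genes had unadjusted p under 0.05. Of all genes tested 6.56% were lower at that level. The list mean was 4.86 to 5.02 in stressed mice, against 5.25 to 5.93 in control mice 2 to 5 and 5.61 in control mouse 1. It includes Cpa3, Mcpt1 and Mcpt2, and so is no separate evidence beside them. For Tpsb2, Tpsab1, Kit and Gata2 the groups overlapped. Slc18a2, which mast cells express, was higher in the same comparison. Hdc, the histamine-forming enzyme, lay below the filter, as did Ms4a2, Cma1, Mcpt4 and Fcer1a. In the fit with no filter Ms4a2 and Cma1 differed by 0.17 and 0.05, and Mcpt4, Fcer1a and Hdc by -0.17, -0.20 and -0.18.

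Markers of other tissue were read beside the epithelial genes Ddc, Slc6a4 and Maoa. Of all genes tested without control mouse 1, 56.2% were higher and 43.8% lower, and 0.798% passed. At an unadjusted p under 0.05, 6.56% were lower. Of 11 genes of ileal enterocytes, 9 were higher and 2 lower without control mouse 1, and 2 passed. Cubn, a receptor for intrinsic factor with cobalamin, rose by 0.70 (limma adjusted p = 0.0245), and Fgf15, an ileal hormone, rose by 1.73 (limma adjusted p = 0.0347). Neither passed with all 10 arrays, at 1.35 for Cubn (limma adjusted p = 0.600) and 2.41 for Fgf15 (limma adjusted p = 0.373). The call of Cubn ended without control mouse 3 or stressed mouse 4 or 5, at adjusted p up to 0.0694, and that of Fgf15 on leaving out any mouse except control mouse 4, at adjusted p up to 0.0905. Amn, the partner of Cubn, differed by 0.31 (limma adjusted p = 0.256). The list mean was 11.28 to 11.82 in stressed mice, against 11.10 to 11.45 in control mice 2 to 5 and 7.76 in control mouse 1, where Slc6a4 was also lowest. The 6 tested large intestine genes averaged 7.38 to 9.42 in stressed mice, against 7.37 to 7.87 in control mice 2 to 5 and 10.31 in control mouse 1. The stressed mouse at 9.42 was mouse 4. With it and control mouse 1 left out, the difference of Chga was 0.30, of Chgb 0.40, of Slc18a2 0.86, of Maob 0.53 and of Slc6a4 0.25. None of the large intestine genes passed (1 with arrays centred on their medians), with 4 higher and 2 lower, and 1 lower gene had unadjusted p under 0.05. Car1 differed by 1.75 (limma adjusted p = 0.535), Aqp4 by -0.75 (limma adjusted p = 0.0921) and Slc26a3 by 0.21 (limma adjusted p = 0.412). Platelets, which carry serotonin in blood, had 4 tested marker genes, all lower and 0 called, 1 with unadjusted p under 0.05. Itga2b differed by -0.25 (limma adjusted p = 0.130), Gp9 by -0.17 (limma adjusted p = 0.449) and Gp1bb by -0.09 (limma adjusted p = 0.572). The list mean was 6.62 to 6.76 in stressed mice, against 6.74 to 6.87 in control mice 2 to 5. The part of these other cells in the levels of the 10 genes was not tested.

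Within groups, the 9 of the 10 genes that passed the filter did not vary as 1 block. Slc18a2, below the filter, was not correlated. After group means were subtracted, over the 9 arrays without control mouse 1, Maoa and Maob correlated at 0.883 across mice, Slc6a4 and Maoa at 0.791 and Slc6a4 and Maob at 0.705. The genes of breakdown and reuptake thus had similar profiles over mice. Among stressed mice, mouse 5 was the highest for Maoa, Maob and Slc6a4. Stressed mouse 1, with the highest 3' to 5' ratio, was the lowest for Maoa and Maob. The part of these mice in the correlations was not tested. The 2 chromogranins correlated at 0.204 with each other, Tph1 and Chga at 0.380, and Ido1 and Chgb at -0.739. These values rest on 9 arrays that share their scaling, and they are descriptions with no test. By the same measure the genes with profiles most like that of Tph1 were Tnfaip8l1 (0.95), Misp3 (0.943), Slc36a3 (0.940), Slc46a3 (0.936) and Ghrh (0.915). For Chga they were Mtch1 (0.988), Irf3 (0.986), Samd4 (0.982), Rpl8 (0.982) and Tfip11 (0.979). For Ido1 they were Pced1a (0.955), Trgv4 (0.949), Hsd11b1 (0.947), Lypd1 (0.945) and Ifi47 (0.945). Each set holds the 5 highest values picked from the tested genes outside the 10, so values this high can come from the picking alone.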

How the data were processed

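The authors deposited log2 probe set values for 10 arrays, made with RMA (background correction, quantile normalization and summary per probe set) per the submitters' processing notes. The version of RMA is not given in the sources used here. Base 2 was inferred from the values, which ran between 1.22 and 14.4. Since RMA equalizes the distributions of the arrays, a shift in the total RNA of a sample is lost. Precision is limited by how many arrays there are. Groups came from the sample titles, and the labels name 1 mouse per sample.

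Of 45101 probe sets, 34945 had 1 gene symbol, 932 had several and 9160 none, beside 64 control probe sets. The lowest 40 percent by mean were left out (floor 4.15), and the highest probe set per gene was kept, which left 13666 genes. Groups were compared with limma 3.58.1 in R 4.3.3 (lmFit, eBayes, 2-sided, Benjamini-Hochberg over all genes tested), after a test on simulated data. The text names all 10 members, and of each other list the genes called and up to 3 with the smallest p without control mouse 1. In some lists it names further genes. The members and the 16 other lists were chosen with earlier results of these data known, and a further list and the covariate after seeing them. Alternatives changed the filter, the probe set choice, the scaling, the model, the array weights and the mice. The promoter windows are from RefSeq, build GRCm38.p6. Symbols are those of the platform annotation and can be old.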

Additional observations from a re-analysis of the deposited data

Results flagged for a closer look

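For 5 of the 10 genes, 1 control mouse lay farther from the other 4 than chance alone often gives by Dixon's test, and each time it was control mouse 1. Tph1 was at 7.98 there and at most 6.06 in the other controls. Slc6a4 was at 5.07, against 7.13 or more. Maoa was at 11.90 against at most 11.43, Chga at 9.22 against at most 7.45, and Chgb at 11.89 against at most 10.34. The test was run on 30 groups (stressed mice, control mice and control mice 2 to 5 for each gene), and chance marks about 1 group in 20. The same array held 7.88 of Fabp6 and 14.17 of Car1, against 13.88 to 14.10 and 4.95 to 13.32 in the other mice. The part of these in the 5 values was not tested.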

How the results depend on the processing

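Without control mouse 1, the directions of the 10 genes held in 175 of 177 combinations of gene and alternative setting. The exceptions were Slc18a1 with median centring (-0.0048) and Ido1 with array weights (0.0044). A gene passed in 2 of these, Maob with the replicate block (0.61, adjusted p = 0.0264) and Slc18a2 without control mouse 2 (0.99, adjusted p = 0.0376). With all 10 arrays directions held in 177 of 187. Tph1 turned to 0.22 with array weights, and Chga to 0.26. On leaving out 1 mouse, Tph1 ran from -0.37 to 0.23, Chga from -0.15 to 0.33, Slc18a1 from -0.011 to 0.060 and Chgb from -0.11 to 0.41, with Tph1 and Chga turning without control mouse 1, Slc18a1 without control mouse 2 or stressed mouse 4 and Chgb without control mouse 2, 3 or 4. Chgb also turned to -0.12 with the neuronal list mean as a covariate, an alternative chosen after seeing the data. Slc6a4 then passed, at 0.96 (adjusted p = 0.0291). The cause was not tested.

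The count of genes called by limma with all 10 arrays, 0, became 2 with the mean of all probe sets, 2 with median centring, 2 with quantile normalization, 41 with array weights and 203 with the neuronal covariate. It ran from 0 to 109 on leaving out 1 mouse, with 109 without control mouse 1 and 2 without stressed mouse 2. Without control mouse 1, the count of 109 became 242 with median centring (44 higher and 198 lower), 171 with quantile normalization, 169 with trend and robust variance and 0 with the neuronal covariate. It ran from 6 to 154 on leaving out a further mouse, with 19, 16 and 58 without control mouse 2, 3 or 4 and 32, 21, 6 and 14 without stressed mouse 1, 3, 4 or 5. Equal replicate numbers did not pair the mice: deviations of the 5 same-numbered pairs correlated at -0.297 to 0.277, and 2 of 5 stressed and 1 of 5 control mice matched their own number best. With the number as a block, limma called 0 genes with all 10 arrays and 95 without control mouse 1 and its partner. Values of genes near the filter floor, Slc18a2 above all, are limited by signal over background.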
